A study of Drosophila melanogaster with 5 samples.

Results

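Dopamine, octopamine, tyramine and serotonin act on neurons through G protein-coupled receptors, and 10 such receptor genes of Drosophila melanogaster were followed here in cholinergic neurons. The genes were Dop1R1, Dop2R, DopEcR, Oamb, Octbeta2R, Oct-TyrR, 5-HT1A, 5-HT1B, 5-HT2A and 5-HT7. A probe set was taken where the array's annotation gave it 1 gene symbol and that symbol was on this list, a rule that used no measured value. This found 11 probe sets for 9 of the 10 genes, out of 13966 probe sets for 10844 genes in all. Oamb, an octopamine receptor gene, has no probe set named by the annotation and was not analysed here. Dop2R and Octbeta2R had 2 probe sets each, and the other 7 genes had 1.

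The amine receptors fall into classes by the G protein they engage. Some stimulate adenylyl cyclase and raise cyclic AMP, some inhibit it, and others act through phospholipase C and calcium. In the fly brain amines are released by small sets of neurons, and many of the cells that respond, among them the mushroom body neurons needed for olfactory memory, are cholinergic. The amounts of the receptor messages in a neuron bear on which amines it can respond to.

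The study measured RNA on 5 arrays, namely 4 of embryonic cell cultures, lettered a, b, c and d, and 1 of dissociated larval brain. All 5 hold total RNA of cells that a flow cytometer sorted by their green fluorescent protein, driven as UAS-GFP by a Cha-Gal4 transgene with 7.4 kb of DNA from the choline acetyltransferase gene. Every group carries that driver and reporter, so "cholinergic" here means marked by this fragment, and no array holds cells from outside the sort. Nothing in the labels says whether the 4 culture arrays are separate cultures, how old the cultures were or which larval stage was used. The p-values therefore rest on a spread between arrays that may be technical.

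Values are linear probe set intensities on the authors' scale. The tests ran on log2(intensity + 47.4), so differences of dim genes are understated. The table holds no detection calls. Background was therefore taken, array by array, as the brightest of 23 controls that match mouse, yeast or bacterial sequences. This gave 147.8, 200.4, 119.0 and 271.3 for culture arrays a to d, and 82.6 for larval brain. Differences are larval brain minus embryo culture, from limma fitted over all 13966 probe sets with Benjamini-Hochberg adjustment. Only the culture arrays inform the spread, which the single larval brain array is taken to share. An exact permutation of 1 array against 4 could not go below a one-sided p of 0.2.

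The larval brain array also differed from the cultures in its cell markers and in the 3′ bias of control messages. Of the marker lists, the gut and epidermis list fell in 3 of 6 measured genes (Tsp42Ed, hoka and Jon65Aiv), and its summed intensity was 18122 to 25646 in culture and 634 in larval brain. The other 7 lists had 0 genes past the threshold. Most of the gut and epidermis sum in culture came from Tsp42Ed (13113 to 16279) and hoka (2853 to 8082). Of that list's genes that did not pass, shg read within the culture range, ftz-f1 below it and Cpr47Ef under background throughout. Summed intensity was 2185 to 3958 in culture and 7464 in larval brain for 7 pan-neuronal genes. By gene, 4 of the 7 lay above all culture arrays, nwk lay below, and Rdl and para lay within. Summed intensity was 2586 to 4831 in culture and 8235 in larval brain for 8 progenitor and cell cycle genes. It was 747 to 5623 and 512 for 6 muscle genes, and 1462 to 3910 and 945 for 8 blood cell and fat body genes. For 3 cholinergic, 5 aminergic and 8 glial genes the larval brain sums of 3678, 1992 and 3243 lay within the culture ranges of 2044 to 4360, 1432 to 3572 and 2987 to 4839. ChAT, the acetylcholine-making enzyme, was above background on all 5 arrays. Of the 5 aminergic genes, ple and, by its brighter probe set, Vmat were so too. DAT exceeded background only in larval brain, SerT on 1 culture array and in larval brain, and Tbh on no array. No marker was listed at 0. The mean log2 ratio of 3′ to middle signal over 3 control messages was 2.450, 2.345, 1.495 and 1.660 on arrays a to d and 1.146 in larval brain. The part of these differences in any receptor result was not tested, except that each fit was repeated with the 3′ ratio as a covariate.

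Messages of 5 receptor genes lay above background on all 5 arrays: Dop1R1, Dop2R, DopEcR, Oct-TyrR and 5-HT2A. Over all probe sets, 37.8% did so. By array, 7, 5, 6 and 5 of the 11 receptor probe sets exceeded background on culture arrays a to d, and 8 did in larval brain. In the same order 59.6%, 53.8%, 61.9%, 48.6% and 68.0% of all probe sets did. 5-HT1A was the 1 gene of the 9 at or under background on every array, as were 21.4% of all probe sets. Octbeta2R, 5-HT1B and 5-HT7 crossed it on some arrays.

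**Figure D1:**
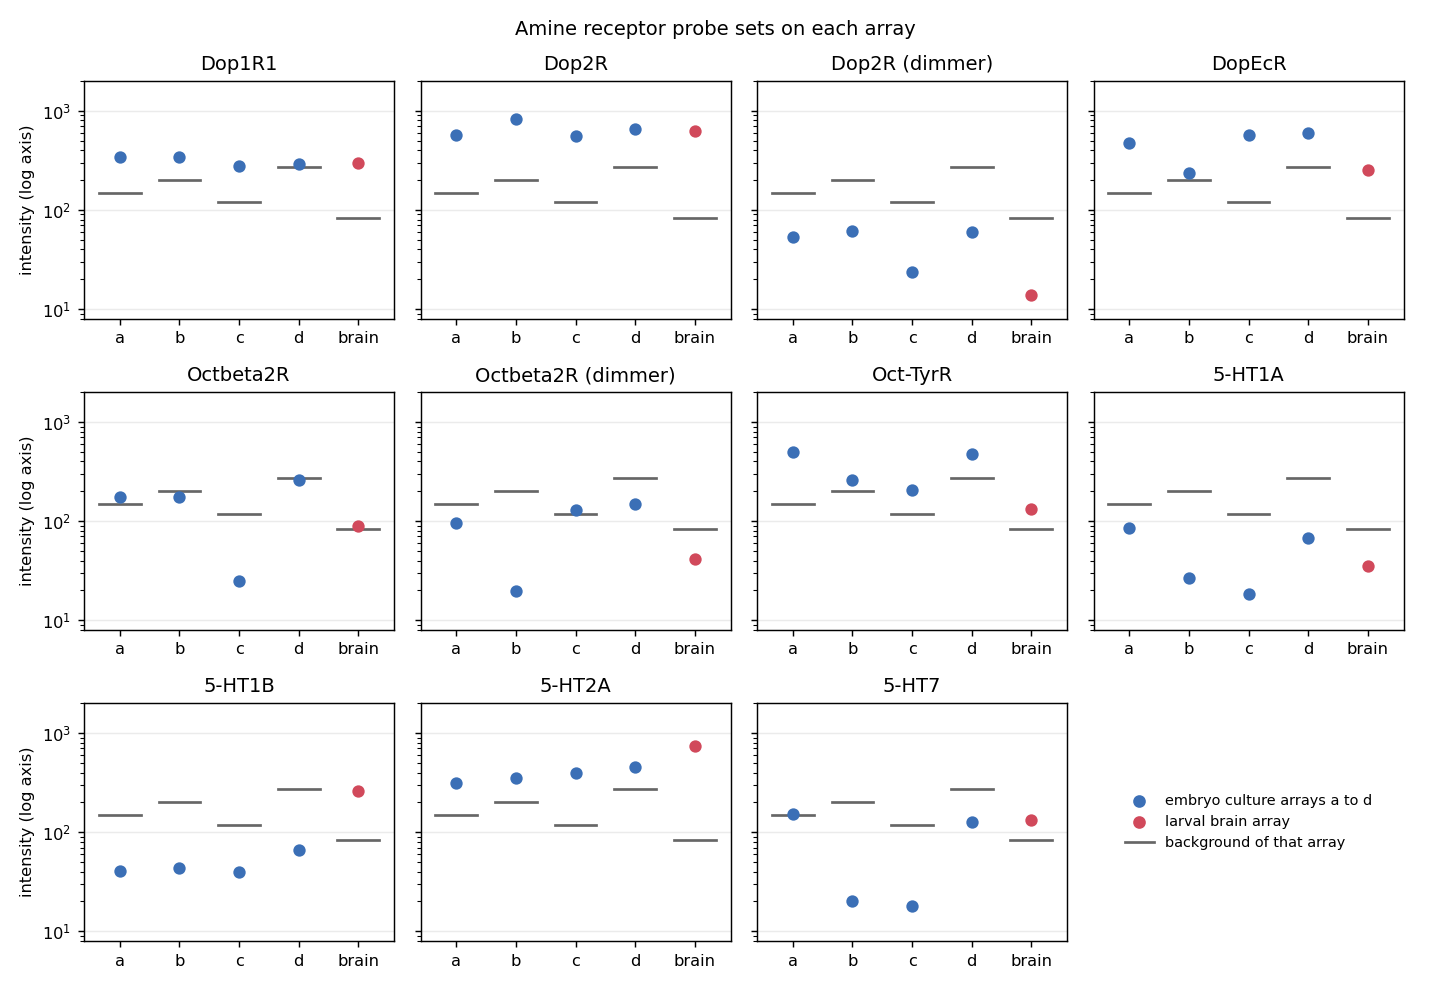
Intensity (log axis) of the 11 receptor probe sets on culture arrays a to d (blue) and the larval brain array (red), with a grey bar at each array's background. The 5-HT1B panel shows 4 culture points under background and the larval brain point at 260.7 above the background of its own array. Dop1R1 and the brighter Dop2R probe set lie at similar heights on all 5 arrays.

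No receptor gene passed the test between larval brain and embryo culture. Of all probe sets 3.26% passed, 0.866% higher and 2.39% lower in larval brain, and at such shares 0 of 11 does not set the receptors apart. In RNA from many cells, fewer cells with a message and less message per cell cannot be told apart. By unadjusted p, 1 of 9 receptor genes (5-HT1B) was under 0.05, against 16.0% of all probe sets. The median log2 difference of the 9 genes was -0.05, against -0.07 for all genes. In larval brain 5-HT1B and 5-HT2A lay above all culture arrays and Oct-TyrR below all of them, which is 2 and 1 of 9 genes, and 25.6% and 28.6% of all probe sets did the same. Across all probe sets, no difference smaller than 1.35 on the log2 scale passed the test. Under the alternative settings that limit ran from 0.66 to 2.16.

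The 3 dopamine receptor genes were above background on every array. Dop1R1 encodes the receptor through which dopamine raises cyclic AMP in mushroom body neurons, and it is required there for learning. Its intensities were 342.3, 342.8, 275.0 and 289.6 on culture arrays a to d and 300.1 in larval brain. The larval brain value fell between those of the cultures, and the highest culture array was only 1.25 times the lowest. The log2 difference was -0.05 ± 0.54 (SE), with a 95% interval from -1.26 to 1.17 (limma adjusted p = 0.980). In linear terms that interval runs from 0.417-fold to 2.26-fold.

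Dop2R encodes the inhibitory dopamine receptor, which lowers cyclic AMP and in many dopamine neurons acts as an autoreceptor. The brighter probe set read 569.2, 824.6, 556.3 and 662.3 on arrays a to d and 626.9 in larval brain. Every array was well clear of its background, and larval brain again lay inside the culture range. Its log2 difference was -0.04 ± 0.44, with an interval from -1.03 to 0.95 (limma adjusted p = 0.978). The second probe set disagreed in detection: it read 53.7, 60.8, 23.9, 60.6 and 13.7 in the same order, under background on all 5 arrays, and gives no level. Which transcripts each probe set matches is not given in the sources used here. Among the 5 receptors above background throughout, Dop1R1 and Dop2R had the most similar profiles, with a root mean square difference of 0.17 on the log2 scale after centring each on its mean.

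DopEcR encodes a receptor that responds both to dopamine and to ecdysteroids. It read 469.3, 233.4, 575.9 and 591.2 on culture arrays a to d and 250.2 in larval brain. Array b stood low among the cultures, close to larval brain, and the groups overlapped through that array. The log2 difference was -0.72 ± 0.60, with an interval from -2.07 to 0.63 (limma adjusted p = 0.620). Taken against arrays a and b alone it was -0.36, against c and d alone -1.08, and it was -1.39 with the 3′ ratio as a covariate (adjusted p = 0.427).

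Of the octopamine and tyramine receptors, Oct-TyrR was above background throughout and Octbeta2R was not. Oct-TyrR encodes a receptor that answers to tyramine more strongly than to octopamine and lowers cyclic AMP. Its intensities were 499.1, 257.3, 203.8 and 474.3 on culture arrays a to d and 133.2 in larval brain. Arrays a and d were high, b and c were intermediate, and larval brain was lowest. This was the largest negative difference among the 9 genes, -1.09 ± 0.66 on the log2 scale, with an interval from -2.57 to 0.39 (limma adjusted p = 0.480). The larval brain value was below each culture array, but the cultures themselves spanned a 2.45-fold range.

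Octbeta2R encodes an octopamine receptor that raises cyclic AMP and in the larva takes part in activity-dependent growth of motor terminals. Its brighter probe set read 174.4, 173.6, 24.9 and 257.1 on arrays a to d and 89.3 in larval brain. Only array a and the larval brain array exceeded their own background. The second probe set read 95.2, 19.9, 130.2, 147.7 and 41.6, above background on array c alone. Most of these values are under background and have no order. Log2 differences were -0.41 ± 0.84 and -0.60 ± 0.68 (limma adjusted p = 0.859 and 0.725), and that of the brighter turned to 0.38 with the 3′ ratio as a covariate.

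Among the 9 genes, the 2 with larval brain above every culture array were the serotonin receptors 5-HT1B and 5-HT2A. Other amine receptors of the fly did not divide in this way. 5-HT2B, also a serotonin receptor, lay below all culture arrays (100.8 against 103.1 to 423.3). The octopamine receptor Octbeta1R lay above all of them (337.8 against 70.6 to 318.4). Both margins were small, and some of these culture values were under background. 5-HT1B, an inhibitory receptor that lowers cyclic AMP, read 40.7, 43.4, 39.3 and 65.4 on culture arrays a to d and 260.7 in larval brain. All 4 culture arrays were under their background and the larval brain array was above its own, a pattern that 6.91% of all probe sets showed. Against the mean of the 4 culture backgrounds on the log2 scale, larval brain was at least 1.48-fold higher. The larval brain value was under the background of array d, 271.3, so no rise is bounded against that array alone. The fitted log2 difference was 1.71 ± 0.51, with an interval from 0.56 to 2.87, an unadjusted p of 0.00843 and an adjusted p of 0.123 by limma. The difference therefore did not pass over all probe sets. It stayed positive in each of 13 alternative fits, from 1.08 when the 40th percentile of all values was added before the log2 to 2.17 when the 5th was, with adjusted p-values from 0.0695 to 0.476. With the 3′ ratio as a covariate it was 1.60 (adjusted p = 0.368).

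5-HT1A, the other inhibitory serotonin receptor and a close neighbour of 5-HT1B on chromosome arm 2R, with 4 protein-coding genes between them in the RefSeq table, read 84.7, 26.8, 18.3 and 67.5 on culture arrays a to d and 35.4 in larval brain. With every array under background these values have no order, and no fold is given. Whether 5-HT1A differs from 5-HT1B in its response was not tested.

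5-HT2A encodes a receptor that couples to phospholipase C and calcium. Its intensities were 311.9, 353.4, 395.0 and 456.3 on culture arrays a to d and 741.6 in larval brain. The larval brain value exceeded the brightest culture array, and the cultures were close to each other, with a highest value 1.46 times the lowest. The log2 difference was 0.90 ± 0.49, with an interval from -0.20 to 1.99 (limma adjusted p = 0.427). It stayed positive in 13 alternatives, and was lowest, at 0.59, with the 3′ ratio as a covariate (adjusted p = 0.751).

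5-HT7 encodes a serotonin receptor that raises cyclic AMP. It read 152.5, 20.3, 18.2 and 127.3 on culture arrays a to d and 133.0 in larval brain. Only array a, by a small margin, and larval brain exceeded background, so that 3 of the 4 culture values have only a bound. The log2 difference was 0.69 ± 0.75, with an interval from -1.01 to 2.39 (limma adjusted p = 0.714).

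**Figure D2:**
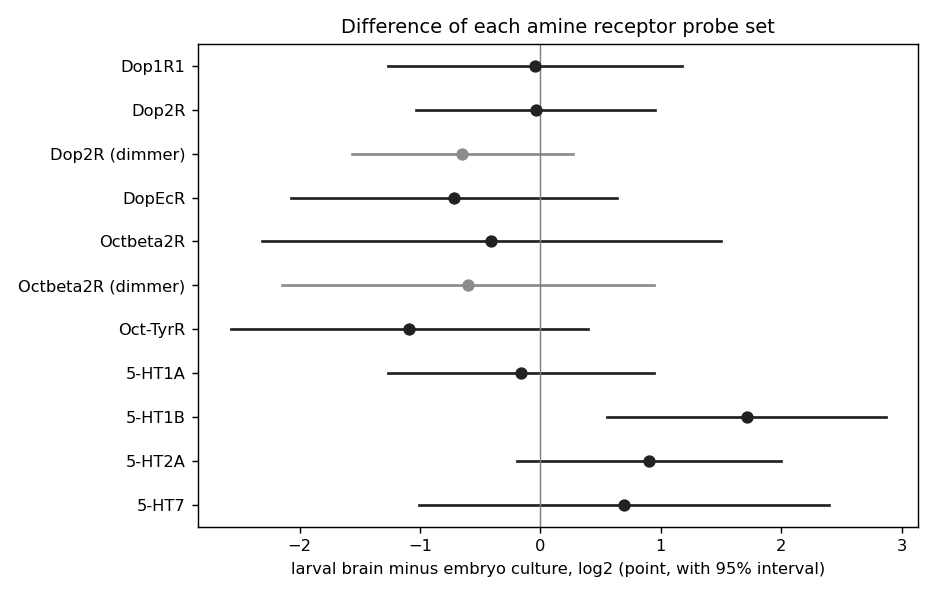
Difference between larval brain and embryo culture on the log2 scale (points) with the 95% interval from limma (lines) for each receptor probe set, the dimmer probe sets of Dop2R and Octbeta2R in grey. The 5-HT1B interval, from 0.56 to 2.87, lies wholly above 0 before adjustment over all probe sets, and the other 10 intervals include 0.

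Spread between the culture arrays differed among the receptors. The SD of log2 values was 0.14 for Dop1R1, 0.21 for 5-HT2A and 0.24 for Dop2R. Among probe sets above background on all 4 culture arrays, these SDs stood at the 4.71, 13.7 and 20.4 percentiles. DopEcR and Oct-TyrR had SDs of 0.55 and 0.56, at the 74.6 and 75.6 percentiles. The other genes were under background on some culture arrays, and their spread is not ranked.

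For the 5 receptors above background throughout, the genes with the most similar profiles were sought among 4469 other genes that were also above background on all arrays. Likeness was the root mean square difference between centred log2 profiles over 5 arrays, of which 4 are replicates, so it mostly describes shared variation between arrays. Oct-TyrR was closest to TkR86C, a tachykinin receptor gene, with a difference of 0.12. TkR86C read 572.8, 283.9, 209.0 and 431.3 in culture and 157.7 in larval brain. CG1986 and CG7140 followed at 0.16 and 0.16. Dop1R1 was closest to CG6912, OtopLc and rk, the last a receptor gene for the hormone bursicon, at 0.03, 0.05 and 0.05.

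Dop2R lay nearest to Cpr64Aa, coil and OXA1L, each at 0.07. DopEcR was closest to ath, ebd2 and S, at 0.14, 0.15 and 0.17. The genes nearest to 5-HT2A were CG13319, Rnmt and CG11722, at 0.06, 0.06 and 0.07. Rnmt read 301.7, 308.7, 354.0 and 450.6 in culture and 664.0 in larval brain. Among pairs of these 5 receptors, Dop1R1 and Dop2R were the most alike, at 0.17, and Oct-TyrR and 5-HT2A the least, at 0.92.

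**Figure D3:**
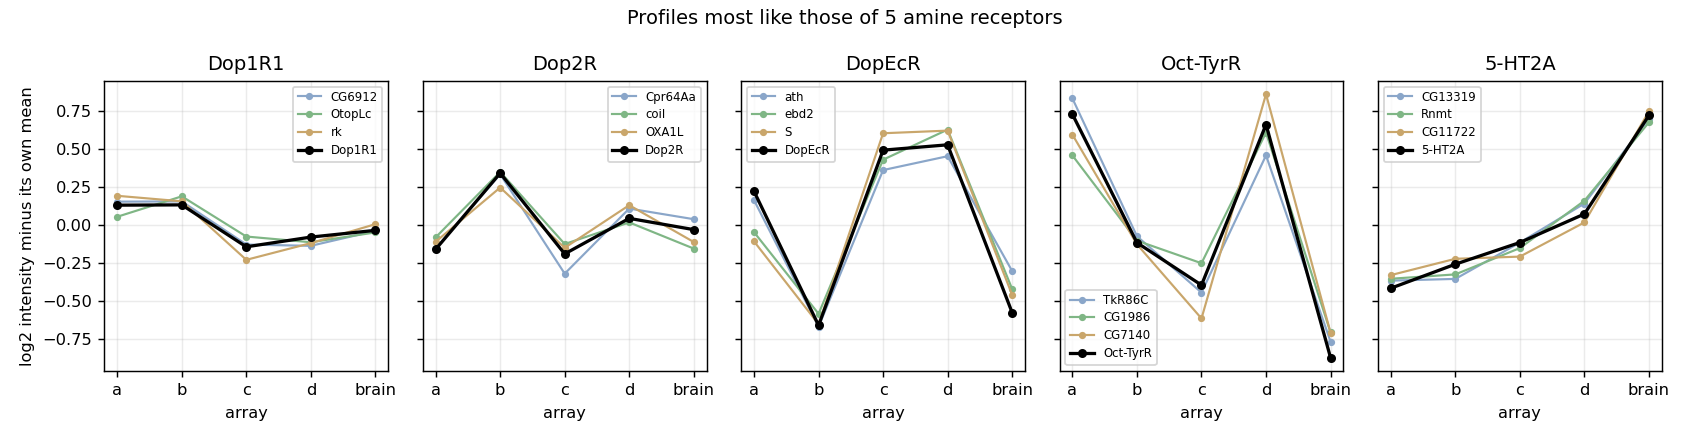
Log2 intensity minus its own mean over the 5 arrays for 5 receptors (black) and the 3 genes with the most similar profile (colours). Lines join arrays only to guide the eye. Oct-TyrR and TkR86C are high on a and d and lowest in larval brain, and 5-HT2A and its 3 neighbours are highest in larval brain.

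No other measured amine receptor of the fly passed either. Of 7 further receptor genes, 6 were measured, and Dop1R2 is not named by the annotation. Their differences ran from -0.87 to 0.86 with a median of -0.36. Brightest were Octalpha2R, an octopamine receptor gene, and Octbeta3R, which lies close to Octbeta2R with 1 protein-coding gene between them. Octalpha2R read 1015.3, 451.7, 615.7 and 711.6 on culture arrays a to d and 537.7 in larval brain (log2 difference -0.30 ± 0.50, limma adjusted p = 0.823). Octbeta3R read 453.3, 363.9, 240.4 and 367.1 and then 233.5 (-0.50 ± 0.57, limma adjusted p = 0.726). These Octbeta3R values are of its brighter probe set, and the dimmer was under background on all 5 arrays. TyrR, a tyramine receptor gene, was also under background on all 5 arrays.

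Enzymes and transporters that supply the amines included the only called genes of the pathway. Of 15 such genes 12 were measured, 0 rose and 2 fell, and among all genes 0.821% rose and 2.81% fell. Pu, the GTP cyclohydrolase that makes the cofactor for dopamine and serotonin synthesis, read 1326.2, 1193.2, 1648.5 and 1069.1 in culture and 121.4 in larval brain. Larval brain lay far under all 4 cultures, with a log2 difference of -2.99 ± 0.42 (limma adjusted p = 0.00567). This call held in all 13 alternatives. Tdc1, a tyrosine decarboxylase gene described in flies as the non-neuronal of a pair, fell from 1592.0, 1276.5, 1592.3 and 950.5 to 299.0 (-1.99 ± 0.43, limma adjusted p = 0.0412). That call held in only 5 of 13 alternatives and was lost without culture array a, b or c (adjusted p = 0.0834, 0.0870 and 0.0802).

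Both falls were measured on the same arrays where gut and epidermis markers were 634 in sum in larval brain and at least 18122 in culture. Most of that culture sum came from Tsp42Ed and hoka. The part of these markers in the falls of Pu and Tdc1 was not tested. Ddc, which makes dopamine and serotonin in neurons and also serves cuticle hardening in epidermis, read 6728, 6767, 8429 and 4469 in culture and 2053 in larval brain. Its difference of -1.63 ± 0.44 did not pass (limma adjusted p = 0.0908). Vmat, the vesicular amine transporter, read 722.8, 874.8, 959.4 and 1241 in culture and 1012 in larval brain (0.11 ± 0.42, limma adjusted p = 0.925). The median difference of this list was -0.44.

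Downstream of the receptors no measured gene passed. Among 9 G protein subunit genes the median difference was -0.05. Galphao, which many inhibitory amine receptors engage, read 1924, 1006, 1430 and 1608 in culture and 1366 in larval brain. These values are of its brighter probe set, whose difference was slightly negative. The dimmer was also above background on all 5 arrays, and its difference was positive but did not pass (limma adjusted p = 0.574). It read 211.1, 297.7, 711.9 and 1315.5 in culture and 1136.8 in larval brain, inside a wide culture range. The direction of Galphao is therefore not settled here. Galphai read 2219, 1035, 758.2 and 473.9 in culture and 950.6 in larval brain, with the larval value inside a wide culture range. Its difference of -0.01 turned to 1.26 with the 3′ ratio as a covariate (limma adjusted p = 0.404). In the cyclic AMP arm, 11 genes had a median of -0.31. The calcium-responsive adenylyl cyclase gene of olfactory learning, rut, has 2 probe sets, which disagree. The brighter, of a type that its suffix marks as shared with other sequences, read 26222, 32449, 29756 and 28957 in culture and 30197 in larval brain (0.05 ± 0.57), and may not be the level of rut. The other read 166.3, 518.1, 317.2 and 117.9 in culture and 482.8 in larval brain, under background on array d (0.86 ± 0.75, limma adjusted p = 0.640). Pka-R1, a regulatory subunit of the cyclic AMP-dependent kinase, read 393.6, 634.0, 896.1 and 839.1 in culture and 1169 in larval brain (0.78 ± 0.51, limma adjusted p = 0.516). With the 3′ ratio as a covariate its difference was -0.005. Pka-R1 has 3 probe sets, and these values are of the brightest. Another was above background on all 5 arrays, though barely in larval brain, and went the other way. It read 318.1, 613.9, 213.7 and 329.7 in culture and 83.4 in larval brain (-1.59 ± 0.66). The dimmest was under background on every array.

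The 7 measured genes of the phospholipase C and calcium arm had a median difference of -0.93, against -0.07 for all genes, and 0 passed. SERCA, the calcium pump of the endoplasmic reticulum, read 3973, 3095, 2455 and 2334 in culture and 875.1 in larval brain (-1.68 ± 0.41, limma adjusted p = 0.0675). The protein kinase C gene Pkc98E read 3585, 2762, 1360.0 and 1404 and then 1031 (-0.99 ± 0.56, limma adjusted p = 0.453). Its difference turned to 0.20 with the 3′ ratio as a covariate, and it was called against arrays a and b alone (-1.57, limma adjusted p = 0.0226). A second, dimmer Pkc98E probe set went the other way. It read 29.2, 92.3, 170.9 and 88.1 in culture, above background on array c alone, and 1024 in larval brain (3.01 ± 0.74). The direction of Pkc98E is therefore not settled here, and the list's medians take its brighter probe set. Against a and b alone the list's median was -1.13, and against c and d alone it was -0.41. SERCA is also abundant in muscle. The summed muscle markers, at 747 to 5623 in culture, were 512 in larval brain, and their part was not tested. Of 7 desensitisation genes 0 passed, with a median of -0.12. The brightest, loco, a regulator of G protein signalling, read 1308, 1570, 2354 and 1722 in culture and 1175 in larval brain (-0.52 ± 0.41). Its dimmer probe set read 448.8, 167.5, 307.9 and 260.6 in culture, under background on arrays b and d, and 367.7 in larval brain (0.34 ± 0.63). Arr1, an arrestin gene best known from photoreceptors, read 288.4, 365.6, 340.6 and 232.8 and then 274.1.

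**Figure D4:**
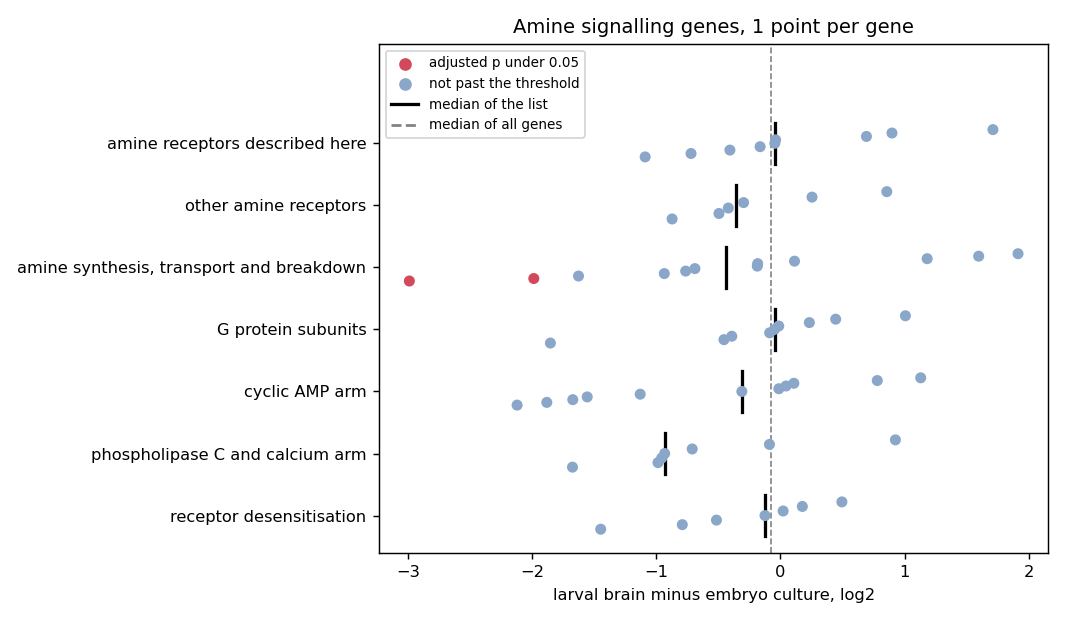
Log2 difference between larval brain and embryo culture for each measured gene of the amine receptors and of 6 pathway lists, 1 point per gene, with the list's median (black bar) and the median of all genes (dashed line, -0.07). The 2 red points, Tdc1 and Pu, are the only genes past the threshold, and the 9 receptors spread from -1.09 to 1.71 around a median of -0.05.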

How the data were processed

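The deposited table holds 1 linear intensity per probe set and array. The values show that the authors scaled the deposited intensities to a common mean (500.06 to 500.08 after trimming 2% at each end). Software, background correction and annotation build were not given in the sources used here. No coordinates are printed. Of 14010 probe sets, 44 controls were left out. The annotation named 12443 by 1 symbol, 327 by several and 1196 by none, and 12394 symbols matched the RefSeq table of Release 6 by Entrez identifier. Log2 values after adding 47.4 (the 20th percentile) were fitted with limma 3.58.1 in R 4.3.3 (trended eBayes, two-sided, 9.11 degrees of freedom after moderation). The fit was also run on simulated data, in which the larval brain array was given the spread of the cultures. That run cannot show whether the real larval brain array shares this spread. A gene was represented by its probe set with the highest mean of both group means. Receptors and lists (6 pathway, 8 marker) were chosen with earlier results of these data known. All receptors are named. From each pathway list, genes past an adjusted p of 0.05 and the 2 brightest are named, and for each receptor above background throughout, the 3 genes of most similar profile. Alternatives changed the pseudocount, normalization, filter, variance model, background, probe set rule, culture arrays and the 3′ ratio covariate. No pair of arrays shared more than 14 values. Precision is limited by the number of arrays. Python 3.11.15, NumPy 2.4.6, pandas 2.3.3 and matplotlib 3.10.9 were used.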

Additional observations from a re-analysis of the deposited data

Results flagged for a closer look

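The dimmer probe set of Dop2R stood out on culture array c, at 23.9 against 53.7 to 60.8 on the other culture arrays. Its gap to the nearest array was 0.837 of the whole log2 range of the 4 arrays, above Dixon's 95% critical value for 4 samples. Among the 25 probe sets examined this way, 11 of them for receptors, this was the only one, and chance flags about 1 in 20. All of its values lie under background.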

How the results depend on the processing

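No receptor gene passed the test in the main analysis or in 13 alternatives applied to all probe sets, nor did Dop2R or Octbeta2R when their probe sets were averaged. Signs of the near-zero differences of Dop1R1, Dop2R and 5-HT1A, and that of Octbeta2R, turned under some alternatives, whereas those of DopEcR, Oct-TyrR, 5-HT1B, 5-HT2A and 5-HT7 did not in 13. Without dim probe sets, 5-HT1A and the dimmer Dop2R probe set have no value. The number of probe sets called was 455, and it was 303 without the variance trend, 1732 with culture arrays a and b only, 796 with c and d only, and 292 to 403 when 1 culture array was left out (lowest without b). The number of pathway genes called was 2, and it was 1 without the variance trend, 11 with a and b only, 5 with c and d only, and 1 to 2 when 1 culture array was left out (1 without a, b or c). The fits with 2 culture arrays have 1 residual degree of freedom. In that with c and d only, moderation raised the degrees of freedom to 13966, against 9.11 in the main fit. Its calls thus rest on a spread fully pooled over probe sets. Where 1 pathway gene was called it was Pu. Tdc1 was called with a and b only and with c and d only. With the 40th percentile, quantile normalization or median centring prt was called in its place, and with the 3′ ratio ple was. Over the 8 alternatives that ended its call, the adjusted p of Tdc1 ran from 0.0570 to 0.113. Signs of the named pathway genes Vmat, Galphao, Galphai, rut, Pka-R1 and Pkc98E also turned in 1 to 5 alternatives. No paired analysis was possible because the groups share only 1 replicate letter. Scaling by quantiles or medians moved the median of all differences from -0.07 to 0.01 and 0.05. Signal over background limits Octbeta2R, 5-HT1A, 5-HT1B and 5-HT7.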

Other observations

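Besides rut, 3 adenylyl cyclase genes were measured, and each read lower in larval brain than on any culture array. Of all probe sets 28.6% did so. This pattern of the 3 genes was picked out after the values were seen, and Ac3 is not named by the annotation. Ac78C has 2 probe sets, of which the brighter was taken. Ac76E read 1785, 1241, 553.8 and 684.8 on culture arrays a to d and 184.7 in larval brain (-2.12 ± 0.62 on the log2 scale, limma adjusted p = 0.115). Ac78C read 1018, 735.5, 523.7 and 422.7 and then 267.0 (-1.13 ± 0.55, limma adjusted p = 0.359). Ac13E read 668.6, 683.3, 180.9 and 362.0 and then 80.2, which is under background there (-1.88 ± 0.73, limma adjusted p = 0.247). None of the 3 passed the test, and arrays a and b, with the highest 3′ ratios, were the brightest for each.

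The transporter gene prt resembled 5-HT1B in exceeding background only in larval brain, as 6.91% of all probe sets did. It read 17.0, 22.5, 25.2 and 33.6 in culture, under background each time, and 169.6 in larval brain, above it (limma adjusted p = 0.0616). Against the mean of the culture backgrounds on the log2 scale, larval brain was at least 0.964-fold of culture, a bound that does not show a rise.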
